A study of Mus musculus with 27 samples.

Results

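The branchial arch (BA) and the forelimb bud (FLB) of mouse embryos at the embryonic day labelled E10.5 were compared as whole tissues by RNA sequencing. The comparison uses 6 of the 27 libraries of the series, 3 labelled BA and 3 labelled FLB at E10.5, assigned by their labels. The comparison itself, the gene lists and the named genes were chosen with earlier results of these data known. The embryos were of the Slc:ICR strain and carried no transgene or treatment in the labels, and the methods give E10.0 to E10.5 for the dissected tissues. The remaining libraries are limb buds of other stages or position, heart, tail bud and limb bud mesenchyme grown from embryonic stem cells, and they enter here through the scaling of the libraries and, in 1 alternative, through the estimate of the spread. The tissues were cut out and not sorted, so that each library holds mesenchyme together with surface ectoderm, vessels, blood and, in the arch, pharyngeal endoderm and nerves. The labels do not say which of the arches was taken. They do not say either whether libraries of 1 tissue came from separate embryos, and p-values then measure the spread between these samples.

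Both tissues are outgrowths of mesenchyme under ectoderm. The mesenchyme of the arch comes largely from cranial neural crest, and a nested expression of Dlx homeobox genes gives jaw parts their identity in response to endothelin signalling. The mesenchyme of the limb bud comes from lateral plate mesoderm, where Tbx5 starts the forelimb, Fgf10 and the ridge FGFs drive outgrowth, Shh from the posterior margin patterns the digits and the late Hoxa and Hoxd genes set the segments. Hand2 is used in both.

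Levels are scaled CPM, the reads of a gene relative to all reads of its library on a scale that sums to 1000000 before scaling, and differences as log2 fold changes (BA minus FLB) on log2(CPM + 0.5), so that genes with low values differ by more than the figure shows. Of 23279 genes, 12951 reached 1 CPM in at least 3 of the 6 libraries and were tested with limma. At an adjusted p under 0.05 (Benjamini-Hochberg over all genes tested), 2742 genes were called, 21.2% of those tested, with 1430 higher in BA (11.0%) and 1312 lower (10.1%). With a fold change of 2 or more as well, 656 genes were called (5.07%), 376 higher (2.90%) and 280 lower (2.16%). Past 4-fold stood 105 genes higher and 101 lower. Libraries of the tissues did not overlap for 34.5% of the genes tested. The counts given below for gene lists and families are to be read against these shares. Depth was 8077270 to 8541937 reads on genes in BA and 5543746 to 5908858 in FLB, so a floor of 3 reads lies at 0.344 to 0.361 CPM in BA and at 0.505 to 0.530 CPM in FLB. Log values correlated at 0.991 to 0.992 within a tissue and at 0.955 to 0.958 between tissues.

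The BA libraries differed among themselves in a few gene groups. Neuronal genes summed to 515 CPM in BA replicate 1, 181 in replicate 2 and 320 in replicate 3, against 146 to 157 in FLB. Cardiomyocyte genes and Hox genes of paralogue groups 4 to 8 were highest in BA replicate 3, at 53.2 CPM against 19.2 and 21.5, and at 13.1 CPM against 0.803 and 3.80. Without BA replicate 1, 1138 genes were called higher and 1043 lower, and without BA replicate 3, 1283 and 1155. At 2-fold or more the counts were 377 and 283 without replicate 1, and 357 and 292 without replicate 3. In bulk tissue, fewer cells of a type and less RNA per cell cannot be told apart.

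The defining genes fitted the labels in every library. Barx1, a homeobox gene of arch ectomesenchyme on chromosome 13 (13:48663036-48666507, GRCm38), was at 179, 156 and 169 CPM in BA and at 0.521, 0.168 and 1.06 CPM in FLB. Its log2 fold change was 7.36 ± 0.29 (SE, adjusted p = 1.69e-06), the largest among genes of at least 16 CPM. Tbx5, the T-box gene of the forelimb on chromosome 5 (5:119796514-119885220), was at 156, 167 and 174 CPM in FLB and at 0, 0 and 0.843 CPM in BA, with the only reads in BA replicate 3 (-7.90 ± 0.45, adjusted p = 0.000303). The gene with the largest difference of all in the other direction was Hoxa10, at 186, 201 and 181 CPM in FLB and at 0 in each BA library. Sequences before the start of transcription of these leading genes of each direction are shown from RefSeq (GRCm38.p6) as context, 250 bases 5′ to 3′ with each CG in capitals. That of Barx1 is chr13:48662786-48663035 on the plus strand and that of Hoxa10, for the outer of the starts listed, is chr6:52240855-52241104 on the minus strand. The table used holds no entry for Tbx5.
Barx1: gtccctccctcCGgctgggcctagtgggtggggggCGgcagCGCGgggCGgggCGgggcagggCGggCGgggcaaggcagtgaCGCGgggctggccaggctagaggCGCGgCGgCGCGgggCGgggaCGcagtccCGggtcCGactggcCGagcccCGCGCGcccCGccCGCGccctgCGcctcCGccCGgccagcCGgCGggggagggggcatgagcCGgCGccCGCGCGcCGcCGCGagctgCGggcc
Hoxa10: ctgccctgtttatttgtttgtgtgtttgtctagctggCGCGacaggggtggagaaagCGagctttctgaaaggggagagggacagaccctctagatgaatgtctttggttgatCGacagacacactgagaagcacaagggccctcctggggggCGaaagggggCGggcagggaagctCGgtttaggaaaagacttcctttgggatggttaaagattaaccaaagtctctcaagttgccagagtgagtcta
The Barx1 stretch holds 40 CG and 1.30% of the 27025 stretches of the table hold as many, while the Hoxa10 stretch holds 7, as many as or fewer than 46.5% of them. These are descriptions of the letters only.

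Regulators of arch and jaw mesenchyme were nearly all higher in BA. Of the 28 genes of the list, 26 were called higher and 0 lower, 22 of them at 2-fold or more, with a median log2 fold change of 3.03 against 0.00 over all genes tested. The 6 Dlx genes, homeobox genes paired on the chromosomes, rose together. Dlx5 was at 73.0, 80.4 and 84.9 CPM in BA and at 6.77, 5.89 and 8.31 CPM in FLB (3.43 ± 0.11). Its neighbour Dlx6 was at 37.4, 44.4 and 46.3 CPM against 1.04, 1.01 and 1.24 (4.75 ± 0.16). The arch libraries stood far above the limb libraries for both genes, and the limb level of Dlx5 was well above the floor. Dlx1 and Dlx2, which extend into the upper jaw, differed by 3.46 ± 0.10 and 3.11 ± 0.10, and Dlx3 and Dlx4 by 2.95 ± 0.10 and 2.65 ± 0.27. Antisense transcripts of the clusters followed, Dlx1as at 69.8, 75.4 and 85.4 CPM against 0.174, 0 and 0.354, and Dlx6as1 at 52.4, 60.3 and 59.3 CPM against 0.695, 1.01 and 0.707. Dlx1 and Dlx1as share 335 exonic bases on opposite strands, and the strand setting of the counting is not given in the sources used here.

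Targets of the Dlx code and genes that position the jaw followed the same direction. Hand1, a bHLH gene of the distal arch, was at 33.0, 39.3 and 40.8 CPM in BA and at 1.22, 0.674 and 1.41 CPM in FLB. Its relative Hand2 did not show this, at 130, 166 and 188 CPM in BA against 158, 151 and 149 in FLB, with overlapping libraries and a log2 fold change of 0.06 (95% interval -0.30 to 0.43). Gsc, a lower jaw homeobox gene, was higher by 0.55 ± 0.13 (adjusted p = 0.00745). Pou3f3, which marks the upper jaw part of the arch, was at 47.4, 33.4 and 21.1 CPM in BA against 0.174, 0.674 and 0.177 in FLB, with replicate 1 above replicate 3 by a wider margin than for most genes. Lhx6 and Lhx8, LIM-homeobox genes of oral mesenchyme, were at 69.5, 46.4 and 43.4 CPM and at 71.6, 57.5 and 52.2 CPM in BA. Both were under 3 CPM in each FLB library, and for Lhx8 1 FLB library had reads. Pitx1, a homeobox gene of the mandible and of the hindlimb, was at 114, 110 and 144 CPM against 1.04, 0.674 and 0.884 (6.49 ± 0.14). The forkhead genes Foxd1, Foxf2, Foxf1a and Foxc2 were higher by 5.40, 5.05, 4.89 and 2.54. Nkx3-2, which marks the jaw joint, was at 4.13, 4.16 and 5.78 CPM against 0, 0 and 0.177. Foxc1 (0.86) and Alx4 (0.35) were higher by less than 2-fold.

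**Figure D1:**
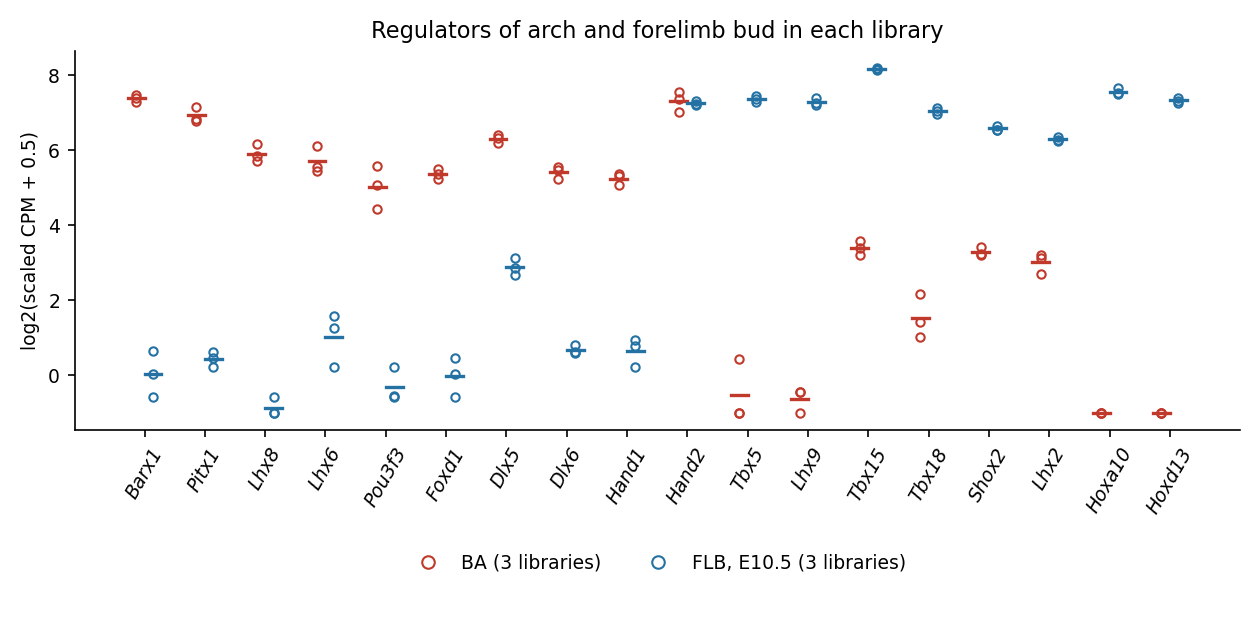
Level of 18 regulators in each library, as log2(scaled CPM + 0.5), with open circles for libraries (red BA, blue FLB, n = 3 each) and bars for the mean. The circles of the tissues are apart for each gene shown except Hand2, which lies at 130 to 188 CPM in all 6 libraries.

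Genes of the limb field and limb bud mesenchyme were mostly lower in BA, but not as a whole. Of 27 genes tested, 17 were called lower and 3 higher, 11 of the former and 1 of the latter at 2-fold or more, and the median was -0.84. The LIM-homeobox gene Lhx9 was at 147, 169 and 154 CPM in FLB and at 0, 0.237 and 0.241 CPM in BA. Its relative Lhx2 was lower by a smaller amount, at 76.2, 81.0 and 76.7 CPM against 8.83, 8.19 and 6.02, and so was Lmx1b, the dorsal selector, at 24.0, 25.3 and 24.6 CPM against 2.52, 1.78 and 1.69. The T-box genes Tbx15 and Tbx18, which act in proximal mesenchyme and skeleton, were among the largest differences. Tbx15 was at 286, 293 and 282 CPM in FLB and at 8.72, 10.1 and 11.4 CPM in BA (-4.77 ± 0.08), and Tbx18 at 131, 126 and 140 CPM against 2.18, 1.54 and 3.98 (-5.52 ± 0.30). Shox2, needed for the proximal limb skeleton, was at 93.1, 101 and 93.5 CPM in FLB against 10.3, 8.90 and 8.79 CPM in BA. Sall1, Sall3 and Grem1, the BMP antagonist that links Shh to the ridge, differed by -3.03, -4.84 and -2.96. Asb4, a gene of an E3 ligase adaptor, was read in both tissues, at 677, 682 and 645 CPM in FLB against 133, 154 and 149 CPM in BA.

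Other limb genes differed little or went the other way. Gli3 (-0.46), Pkdcc (-0.84), Irx3 (-0.89) and Irx5 (-0.40) were lower in BA by less than 2-fold. Fgf10, the mesenchymal signal for outgrowth, was at 32.1, 33.8 and 32.2 CPM in FLB and still at 17.6, 15.2 and 15.8 CPM in BA. Higher in BA were Tbx2, at 193, 162 and 165 CPM against 83.2, 74.4 and 93.0 (1.05 ± 0.08), Meis2 (0.74) and Osr1 (0.63). Not called were Sall4, Zbtb16, Tbx3, Meis1, Emx2, Hand2 and Plxdc2, whose differences lay between -0.28 and 0.25. Without BA replicate 1, 5 genes of the list were called higher in place of 3.

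The 39 Hox genes differed by more towards the later groups of the clusters. Over those tested, the median log2 fold change was -1.37 in groups 1 to 3, -3.60 in groups 4 to 8 and -6.95 in groups 9 to 13. In paralogue groups 1 to 3, 6 genes were tested and only Hoxa2, the Hox gene of the hyoid arch, was called, at 18.0, 31.2 and 28.1 CPM in BA against 7.12, 9.26 and 8.66 in FLB (1.54 ± 0.17). Hoxb2, Hoxa3, Hoxb3 and Hoxd3 were lower on average in BA and not called, and they were lowest in BA replicate 1. Hoxb3 was at 2.87, 9.73 and 12.4 CPM against 31.3, 28.8 and 37.1, and Hoxa3 at 1.15, 7.24 and 7.47 against 16.8, 16.8 and 20.2. Without BA replicate 1, 3 of these 6 genes were called lower, without BA replicate 3, 2, and with the spread set by 26 libraries, 4. For Hox groups 4 to 8, 14 of 15 genes were called lower in BA, each at 2-fold or more, with a median of -3.60, or -3.96 with the 5 genes at 0 in every BA library set to their bound. The fifteenth, Hoxb5, was at 0, 0.712 and 2.41 CPM against 6.60, 4.55 and 5.48 (adjusted p = 0.0543). Of the 15 genes, 13 were at 0 in BA replicate 1, 7 in replicate 2 and 6 in replicate 3, and the summed level was highest in replicate 3, as given above. Hoxd3 and Hoxd4 share 388 exonic bases on the same strand, and their reads may have been split between them.

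Hox groups 9 to 13, which set the segments of the limb, were essentially not detected in BA. Of 16 genes, 12 were tested and each was called lower at 2-fold or more, with a median of -6.95, or -7.28 with the 9 tested genes at 0 in every BA library at their bound. The group summed to 0.574, 0 and 0.120 CPM in BA and to 811, 838 and 800 CPM in FLB. Hoxd13 was at 161, 154 and 168 CPM in FLB and at 0 in BA, at least 445-fold lower in BA against the floor of 3 reads per library, and Hoxa10 at least 523-fold lower. Hoxd12 was at 101, 90.6 and 98.1 CPM, Hoxa11 at 92.6, 103 and 81.0, and Hoxd10 at 75.7, 79.3 and 69.5 in FLB. Hoxa13, the gene of the hand plate, was at 17.0, 13.8 and 15.7 CPM in FLB and at 0 in BA. The Hoxb and Hoxc genes of these groups stayed under 4 CPM in FLB. Hoxa11as, the antisense transcript at Hoxa11, was at 86.7, 91.1 and 92.1 CPM in FLB and at 0 in BA. Over all genes, 11 were at 0 in each BA library and at 5 CPM or more in each FLB library, and 8 of these are Hox genes. The others are Hoxa11as, Mira, an RNA of the Hoxa cluster, and Bhlha9, a bHLH gene of the ridge. No gene was at 0 in FLB and at 5 CPM or more in each BA library.

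**Figure D2:**
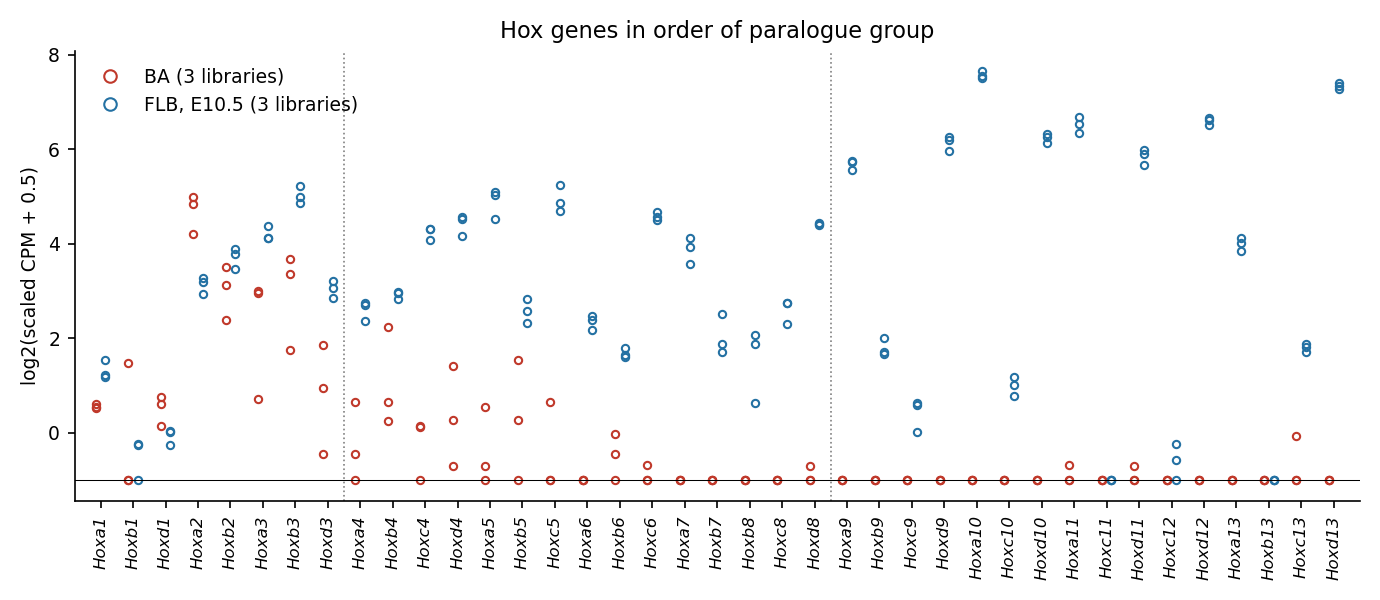
Level of the 39 Hox genes in each library (log2(scaled CPM + 0.5); red BA, blue FLB, n = 3 each), ordered by paralogue group with dotted lines after groups 3 and 8; the lower line is 0 CPM. In groups 1 to 3 Hoxa2 is higher in BA and Hoxa3, Hoxb3 and Hoxd3 have lower means in BA, BA shows traces in groups 4 to 8, and the summed level of groups 9 to 13 is 800 CPM or more in FLB and 0.574 or less in BA.

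Genes shared by both mesenchymes were called often but differed little. Of 17 genes, 5 were higher and 9 lower in BA, 1 at 2-fold or more, with a median of -0.13. Prrx1, the paired homeobox gene of limb and face mesenchyme, was at 614, 615 and 500 CPM in BA and 697, 695 and 679 in FLB (-0.27). Twist1 (0.22), Twist2 (0.77) and Msx1 (0.61) were higher in BA, and Prrx2 (-0.57), Msx2 (-0.43) and Pdgfra (-0.55) lower. Tcf21 was the gene past 2-fold, at 1.95, 4.27 and 5.42 CPM against 0, 0.168 and 0.177. Collagen I genes were lower in BA (Col1a1 -0.21, Col1a2 -0.52) and Col3a1 higher (0.31).

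Among the 20 largest differences in each direction, 7 of those higher in BA and 4 of those lower were in no list. Those higher in BA were Dlx1as, Dlx6as1, A730090H04Rik, the uncharacterized AI606473 and 3110099E03Rik, the melatonin-related receptor gene Gpr50 and the collagen gene Col8a2. A730090H04Rik is listed by RefSeq as Dlx4os and shares 79 exonic bases with Dlx4 on the opposite strand, so it too is an antisense transcript of a Dlx gene. AI606473 was at 59.5, 47.4 and 36.9 CPM in BA and at 0.174, 0 and 0 CPM in FLB. It lies at 3:154330821-154334687, beside the listed gene Lhx8 (3:154306288-154330560), which was at 71.6, 57.5 and 52.2 CPM in BA. Col8a2 was at 54.8, 50.1 and 60.8 CPM against 5.56, 2.36 and 7.07 (adjusted p = 0.00693). Those lower in BA included Hoxa11as, the zinc finger gene Zic2, and Pmaip1, which encodes a proapoptotic BH3 protein. Pmaip1 was at 124, 100.4 and 109 CPM in FLB and at 3.44, 2.61 and 2.17 CPM in BA (-5.12 ± 0.13). Zic2 was at 48.1, 52.4 and 42.6 CPM against 1.26, 0.594 and 1.45. In each of these genes the tissues were apart, as the choice of the largest differences required.

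**Figure D3:**
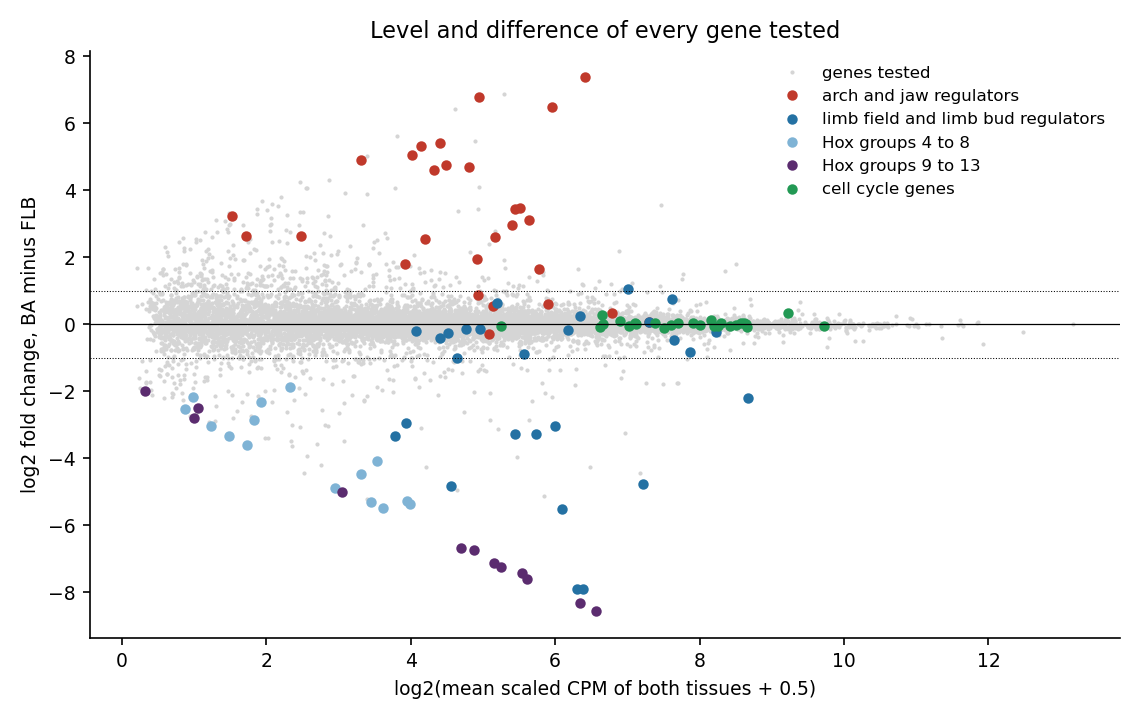
Log2 fold change (BA minus FLB) against the mean level of both tissues for the 12951 genes tested (grey), with members of 5 lists in colour and dotted lines at 2-fold. Arch regulators lie up to 7.36, Hox genes of groups 9 to 13 down to -8.57, and cell cycle genes near 0.

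Genes of endothelin signalling, the ventral signal of the arch, differed by less than 2-fold where they were called. Of 11 genes tested, 3 were called higher and 1 lower (36.4%, against 21.2% of all genes tested), and the median was 0.17. The libraries did not overlap for 7 of them, against 34.5% of all genes tested. Without FLB replicate 2, 1 gene was called higher, and with any other library left out 2 were. The ligand gene Edn1 was low in both, at 0.803, 1.07 and 1.93 CPM in BA and 0.347, 0.505 and 1.41 in FLB (adjusted p = 0.336). Its receptor gene Ednra was lower in BA, at 74.7, 73.7 and 76.3 CPM against 123, 113 and 112 (-0.63 ± 0.06). The effector gene Mef2c (0.39), the converting enzyme Ece1 (0.25) and the phospholipase Plcb3 (0.17) were higher.

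Hedgehog genes went both ways. The ligand gene Shh, which comes from the zone of polarizing activity in the limb and from epithelium in the arch, was at 9.18, 9.50 and 12.5 CPM in BA and 12.2, 12.6 and 11.7 in FLB (-0.23, 95% interval -0.52 to 0.07). Among response genes, Ptch1 was higher in BA, at 120, 143 and 141 CPM against 70.7, 74.4 and 70.9 (0.90 ± 0.06), Gli1 by 0.61 and Hhip by 0.75. The co-receptor genes Boc, Cdon and Gas1 were lower in BA, by -1.37, -0.82 and -0.33 on the log2 scale. Boc was at 33.5, 29.7 and 36.4 CPM against 80.4, 87.9 and 90.2. The list as a whole had 5 higher and 4 lower of 14 tested. Foxf1a and Nkx2-3, targets in gut and pharyngeal mesenchyme, were the 2 genes higher at 2-fold or more.

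FGF ligands and the genes they induce were mostly lower in BA, with 14 of 23 tested lower and 4 higher (4 and 1 at 2-fold or more) and a median of -0.54. Fgf8, made by the apical ridge of the limb and by oral ectoderm of the arch, was at 9.18, 12.8 and 8.67 CPM in BA and 17.4, 24.2 and 21.7 in FLB (-1.02 ± 0.15). Fgf18 (-2.32) and Fgf9 (-0.76) were lower as well, and the ridge gene Fgf4 had no reads in BA and 0.884 to 1.85 CPM in FLB, under the filter. Feedback genes were lower as well. Dusp6, a phosphatase induced by FGF, was at 126, 119 and 103 CPM in BA against 235, 230 and 216 in FLB (-0.97 ± 0.06), Spry4 at 14.6, 15.6 and 10.6 against 39.1, 40.4 and 34.5, and Il17rd at 120, 125 and 107 against 210, 203 and 192. Spry1, Spry2, Etv4, Etv5 and Spred1 differed by -0.54, -0.75, -0.59, -0.63 and -0.30. Etv1 (0.90), the receptor gene Fgfr2 (0.62), Fgf13 (0.49) and Fgf15 (2.25) were higher in BA, while Fgfr1 (-0.37) and Fgfr4 (-1.30) were lower.

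BMP genes split among ligands and modulators, with 5 higher, each at 2-fold or more, and 7 lower of 27 tested, and a median of 0.00. The ligands Bmp4, at 25.0, 25.9 and 29.5 CPM in BA and 63.2, 72.9 and 74.3 in FLB, Bmp7 (-0.88) and Bmp2 (-1.43) were lower. Gdf6 (1.76) and the modulators Bmper (1.59) and Sostdc1 (1.36), with Smad9 (1.37) and the receptor gene Bmpr1b (1.00), were higher. Of the target genes, Id1 was lower by -0.47, and Id2, Id3, Smad6 and Smad7 were not called, with differences between -0.05 and 0.03.

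Wnt genes were called in 21 of 33 tested, 8 higher and 13 lower, of which 3 and 10 at 2-fold or more. Wnt5a, which directs elongation of limb and face, was at 63.4, 69.4 and 68.7 CPM in BA and at 182, 178 and 174 CPM in FLB (-1.40 ± 0.06). Wnt7a, the dorsal ectoderm signal of the limb, was at 0.688, 0.950 and 0.964 CPM against 8.16, 7.07 and 8.31. The agonist gene Rspo4 was at 1.26, 1.07 and 1.69 CPM in BA against 35.8, 36.2 and 32.5 in FLB, one of the widest gaps of the signalling genes. Rspo2, in contrast, was higher in BA, at 42.6, 46.3 and 47.5 CPM against 16.7, 19.5 and 14.5. Wnt9b, an ectodermal ligand of facial outgrowth, was at 24.8, 26.2 and 26.5 CPM against 8.51, 9.26 and 5.83. The secreted antagonist gene Wif1 was lower (-3.09), and Dkk2 (0.72) and Frzb (0.48) were higher. Targets of canonical signalling went both ways, Axin2 higher by 0.22, Tcf7 lower by -1.21 and Nkd2 by -0.79, with Lef1 not called.

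Retinoic acid genes also split, with 6 higher and 4 lower of 18 tested. Cyp26b1, the enzyme that clears retinoic acid from the distal limb, was at 229, 227 and 222 CPM in FLB and at 22.1, 21.7 and 26.7 CPM in BA (-3.24 ± 0.07). The other clearing enzymes went the other way, Cyp26a1 by 1.20 ± 0.18 and Cyp26c1 by 2.46 ± 0.33, at levels under 10 CPM. The synthesis gene Aldh1a2 was higher in BA, at 18.9, 15.9 and 20.1 CPM against 6.60, 7.58 and 6.72. Among binding proteins Crabp1 (0.64) was higher and Crabp2 (-0.76) lower, and of the receptor genes 0 were called.

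Skeletal genes were called in both directions, with 4 higher and 9 lower of 16 tested. Sox9, the regulator of cartilage condensation, was at 70.6, 59.1 and 77.2 CPM in BA and at 128, 123 and 146 CPM in FLB (-0.94 ± 0.09). The matrix gene Col2a1 was higher in BA, at 498, 504 and 561 CPM against 282, 313 and 341, and so was Col9a1, at 212, 250 and 261 against 105, 107 and 111. Runx2 (-1.65) and Scx, the tendon gene (-1.40), were lower, and Runx1 (1.05) was higher. Both regulators and matrix genes were found on each side, as Col11a1 was higher and the matrix genes Matn4, Hapln1 and Col9a3 were lower. Without variance trend and robust estimation the lower count was 5 of 16.

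Epithelial genes went both ways. Of 22 tested, 10 were higher, 0 of them at 2-fold or more, and 6 lower, each at 2-fold or more. General epithelial genes were moderately higher in BA, such as Cdh1 (0.61), Krt8 (0.94), Krt18 (0.76), Cldn6 (1.00) and Esrp1 (0.75). Apart from Krt5, the genes lower in BA were those of ridge and dorsal or ventral limb ectoderm. Sp8, needed for the ridge, was at 12.5, 11.3 and 10.6 CPM in FLB and at 0.344, 0.712 and 0.482 CPM in BA, and En1, the ventral selector, at 7.64, 7.91 and 4.60 against 0, 0.119 and 0.482. Krt5, a keratin gene of basal cells, was at 86.3, 74.6 and 92.1 CPM in FLB against 16.1, 14.7 and 19.9 CPM in BA, opposite to Krt8 and Krt18. Krt14 had the same sign as Krt5 and was not called (-0.36).

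Pharyngeal genes were mostly higher in BA. Of 14 tested, 9 were higher and 1 lower, and 7 more were under the filter. The list summed to 258 to 270.1 CPM in BA and to 162 to 178 CPM in FLB. Eya1, which acts in the pouches and in other tissues, was at 86.5, 88.4 and 72.4 CPM in BA against 26.2, 25.1 and 26.7 in FLB. The endoderm genes were low: Foxe1 was at 4.36, 3.92 and 5.42 CPM, Foxa1 at 5.51, 6.41 and 7.83 and Foxa2 at 1.26, 2.14 and 2.65 in BA, and these 3 had 1 FLB library above 0 between them. The exception was Pax1, a gene of pharyngeal pouches and also of sclerotome and the shoulder girdle, at 5.62, 10.4 and 5.54 CPM in BA against 46.7, 37.0 and 51.8 in FLB.

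Genes of migrating limb muscle were mostly lower in BA, with 9 of 12 tested lower and 1 higher. Meox2 was at 91.9, 76.8 and 80.3 CPM in FLB and at 4.59, 4.16 and 5.90 CPM in BA, Met at 59.2, 55.6 and 48.4 against 13.1, 11.5 and 13.7, and Lbx1 at 7.81, 5.56 and 6.19 against 0.918, 0.712 and 1.08. Among genes of head and heart field mesoderm 8 of 14 were higher and 4 lower. Isl1 was at 25.7, 17.3 and 20.7 CPM in BA against 2.43, 2.36 and 3.54, Ebf3 at 174, 200 and 186 against 80.6, 74.8 and 83.6, and Tbx1 at 8.03, 9.62 and 18.1 against 4.86, 2.19 and 4.60 (1.48 ± 0.37, adjusted p = 0.0268). Tbx1 was highest in BA replicate 3, and its call was lost in leave-outs of other libraries, with an adjusted p of 0.0612 without BA replicate 2. The myogenic genes Myf5, Myod1 and Myog, common to both lists or to muscle in general, were lower in BA, by -0.96, -1.09 and -1.03.

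**Figure D4:**
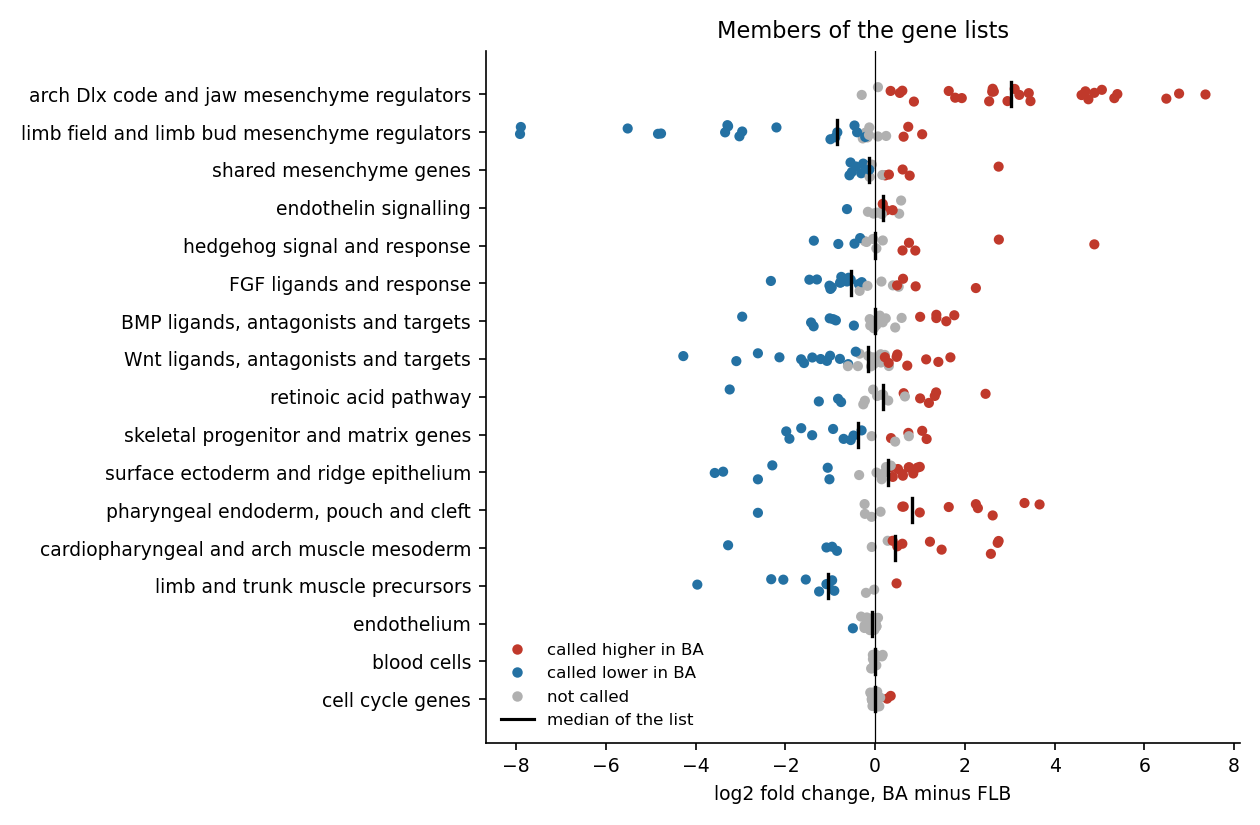
Log2 fold change (BA minus FLB) of each member tested in 17 lists; points are genes, red called higher in BA, blue called lower, grey not called, and the black bar is the median. Medians run from 3.03 for arch regulators to -1.06 for muscle precursors of limb and trunk, and 24 of the 26 cell cycle genes are not called.

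Neural crest and glial genes were called higher in 8 and lower in 2 of 18 tested, and the early crest genes Sox10 and Foxd3 were not called. Nr2f1 and Nr2f2, orphan nuclear receptors of cranial mesenchyme, were at 188, 179 and 211 CPM in BA against 40.8, 40.9 and 45.1, and at 122, 129 and 129 against 62.0, 57.4 and 61.2. Ngfr (1.26), Kit (0.98) and Crabp1 (0.64) were higher, Pax3 (-0.91) and Ets1 (-0.36) lower. The call of Ngfr was lost without FLB replicate 1 (adjusted p = 0.0613). Sox10, the gene of migrating crest and glia, was at 18.4, 3.56 and 8.31 CPM in BA against 2.60, 2.02 and 3.36. The libraries did not overlap, but the spread in BA left it uncalled (adjusted p = 0.198). Sox2, of placodes, pharyngeal epithelium and glia, was even across BA at 15.8, 14.6 and 15.9 CPM against 0.521, 0.842 and 0.354. Tfap2b, which both tissues use, was at 56.7, 47.7 and 43.5 CPM against 54.9, 46.5 and 52.2.

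Neuronal genes were higher in BA but uneven between its libraries. Of 13 tested, 6 were higher and 1 lower; without BA replicate 2 the count was 10 higher, and without each of the FLB libraries 4 or 5. Tubb3, a tubulin of neurons, was at 109, 25.3 and 55.5 CPM in BA against 14.4, 11.4 and 16.4 (adjusted p = 0.119). Nefm, a neurofilament gene, was at 102, 18.0 and 54.7 CPM against 2.08, 2.02 and 2.65, with a log2 fold change of 4.11 (adjusted p = 0.0237). Without BA replicate 3 it was 3.99 and no longer called (adjusted p = 0.0882), and the call was also lost without each of the FLB libraries, at adjusted p of 0.0792 to 0.0938 and log2 fold changes of 4.05 to 4.21. Nefm and Nefl share 1108 annotated exonic bases on opposite strands. Replicate 1 was the highest and replicate 2 the lowest for both genes and for Sox10. Gap43 was even, at 91.7, 83.9 and 78.2 CPM against 30.6, 29.0 and 25.8. Dcx went the other way, at 87.7, 92.6 and 96.5 CPM in FLB and 32.8, 13.2 and 23.4 in BA, and lost its call without any of the FLB libraries and without BA replicate 3. The part of nerve tissue in the differences of other genes was not tested.

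Cardiomyocyte genes were low in both tissues, with 3 of 7 tested higher in BA (42.9%, against 11.0% of all genes tested) and 9 under the filter. Myh7, a heart myosin, was at 0.803, 0.712 and 11.3 CPM in BA, so that replicate 3 stood apart, and under 0.4 CPM in FLB. Actc1 was at 7.69, 8.07 and 14.1 CPM against 2.60, 3.87 and 4.42, and Nppa was at or below 0.177 CPM throughout. The count called higher was 2 without BA replicate 3, and also 2 without FLB replicate 1 or FLB replicate 2. It was 4 without BA replicate 2 or FLB replicate 3.

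Blood, vessels, macrophages and proliferation differed little between the tissues. Of 10 blood genes tested 0 were called by limma, with 0 at an unadjusted p under 0.05, and the embryonic globin Hbb-y was at 1661, 1484 and 1364 CPM in BA and 1967, 1424 and 1334 in FLB. Of 14 endothelial genes, Erg was lower (-0.50) and 0 were higher (3 lower without BA replicate 3, 0 without FLB replicate 2), with Pecam1 at 46.0, 50.7 and 54.7 CPM against 54.7, 55.7 and 53.6. Of 12 macrophage genes, C1qb was higher (0.64) and Ptprc lower (-0.88), 16.7% called against 21.2% of all genes tested. Of 26 cell cycle genes, Mki67 (0.35) and Aurkb (0.27) were higher and 0 lower, and the median was 0.00. Immediate early genes, which respond to handling of tissue, had 4 of 16 higher and 1 lower (31.25%, against 21.2% of all genes tested). The higher count was 6 without FLB replicate 1 and 2 without FLB replicate 2 or 3, and without FLB replicate 2 the lower count was 0. Fos was at 7.00, 14.0 and 19.0 CPM in BA and 8.86, 1.01 and 0.707 in FLB, with overlapping libraries (adjusted p = 0.219), and Jun was higher by 0.44.

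**Figure D5:**
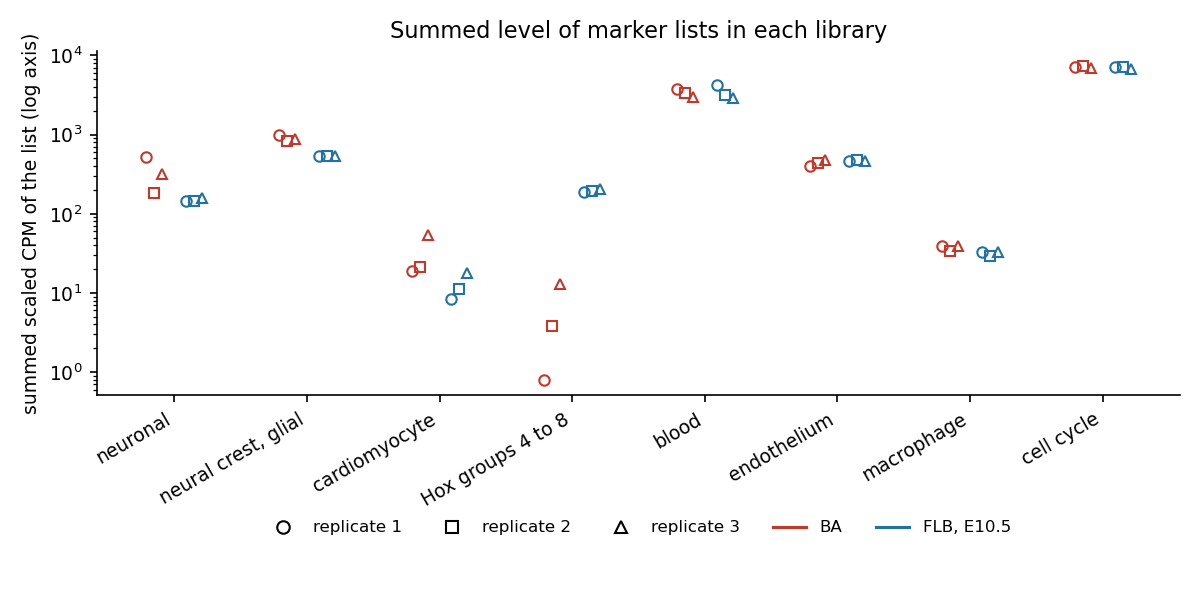
Summed scaled CPM of 8 marker lists in each library on a log axis (red BA, blue FLB; symbols give the replicate number as a name). The neuronal sum runs from 181 to 515 CPM in BA and from 146 to 157 in FLB, Hox groups 4 to 8 from 0.803 to 13.1 CPM in BA, and the blood, endothelial, macrophage and cell cycle sums lie close in both tissues.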

How the data were processed

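The authors cut tissues from embryos, made stranded mRNA libraries from 600 ng of total RNA and sequenced single-end reads, which they mapped with HISAT2 2.0.4 to mm10, counted per gene with Cuffdiff and compared with edgeR 3.16.2, as the methods and the submitters' processing notes give. The values deposited by the authors are CPM, 1 per gene and library, and sum to 1000000 in each library. Low values are steps of 1 read, which gave depth and floors. A floor covers the error of counting alone, since amplified reads are not independent molecules. Columns were assigned to samples by their names, and 0 columns were left unmapped.

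Scaling used trimmed means of log ratios without weights (trims of 30% and 5%, 27 libraries). Limma 3.58.1 in R 4.3.3 (trend, robust, no replicate block) then compared log2(CPM + 0.5) between tissues for genes that reached 1 CPM in 3 or more of the 6 libraries. Lists and figures used Python 3.11.15, numpy 2.4.6, pandas 2.3.3 and matplotlib 3.10.9. On simulated data (12965 genes), each of 4 sets of 50 genes changed by 1 or 2 on the log2 scale, up or down, was recovered in full with 7 false calls among 12765. The changed genes had a mean above 5 CPM, and every gene was drawn with the same small dispersion. The simulation therefore does not cover genes at lower levels or libraries as uneven as those of BA. Named genes are Barx1, Tbx5, list members and the 20 largest differences in each direction among called genes with at least 16 CPM in the higher tissue and no overlap of libraries. The comparison, the lists and the named genes were chosen with earlier results of these data known. A few of these genes are left out of the text. Positions and sequences are from RefSeq GRCm38.p6 and exon overlaps from GENCODE on the same assembly. Alternatives were scaling, pseudocount, filter, variance model, libraries that set the spread, a replicate block and each library left out.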

Additional observations from a re-analysis of the deposited data

How the results depend on the processing

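The count of genes called, 2742, stayed within 1.5 times under every alternative run, from 1854 without variance trend and robust estimation to 3015 with the replicate block, and leaving out 1 library gave 2118 to 2732. At 2-fold or more, 656 genes became 379 with a filter of 5 CPM, which tests 10821 genes, and lay between 535 (pseudocount 1) and 796 (no filter) otherwise, with 636 to 679 when 1 library was left out. Scaling changed the share of calls that were higher in BA from 52.2% to between 50.8% and 55.9%.

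Of 242 named genes called, 181 were called under every alternative that tested them, and of 146 at 2-fold or more, 131. No named gene was called in opposite directions. The 2-fold genes that lost their call in at least 1 alternative include Nefm, Elavl3, Dcx, Tbx1, Hoxb4, Hoxd4, Meox1, Fosb and Ttn, and the cause was not tested. With 26 libraries setting the spread (all but 1 hindlimb bud library that earlier results found truncated), 3 in place of 9 shared mesenchyme genes were lower, 6 in place of 10 epithelial genes higher, 3 in place of 5 hedgehog genes higher, 5 in place of 8 Wnt genes higher, 10 in place of 6 neuronal genes higher, and 4 in place of 0 genes of Hox groups 1 to 3 lower. The arch list had 23 to 27 higher, with 1 lower under the replicate block and without BA replicate 3 and 0 lower otherwise. In Hox groups 9 to 13 all 12 tested were lower, or 9 of 9 with the filter of 5 CPM.

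The main test left the libraries unpaired, because the labels do not say what the replicate numbers mark. The values do not give grounds for this choice. Deviations from the tissue mean correlated at 0.061, 0.059 and 0.148 between same-numbered libraries and at -0.084 to 0.020 between the others. Each library correlated best with its own number. Xist and Ddx3y also followed the number in both tissues, but whether same-numbered libraries share embryos is not given in the sources used here. With the replicate block 3015 genes were called, of which 2737 were among the 2742. Nefm (adjusted p = 0.0747) and Dcx (adjusted p = 0.0912) were not called with the block. A count test on reads recovered from the CPM steps was planned and not run, because small fractional values kept the reads from being recovered in the form that it needs. Depth limits statements on genes near 0.344 to 0.530 CPM.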

Other observations

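The gene families below were looked at after their values were seen and carry no test beyond that over all genes. Of 28 Fox genes tested, 16 were higher in BA, 13 of them at 2-fold or more, and 1, Foxo4, was lower (-0.59). Over all genes tested, 11.0% were higher in BA, 2.90% at 2-fold or more. Beside those of the arch list, Foxl2, a forkhead gene known from ovary and eyelid, was at 18.9, 7.48 and 5.78 CPM in BA and at 0.347, 0 and 0 CPM in FLB, Foxd2 at 18.5, 20.8 and 24.8 against 3.30, 3.20 and 3.01, and Foxp2 at 72.8, 70.4 and 72.4 against 25.4, 24.2 and 31.8. Broadly expressed members such as Foxk2 (0.03) and Foxj3 (-0.01) were not called. The zinc finger gene Zic5 was lower in BA, at 8.68, 9.93 and 8.31 CPM in FLB against 0.115, 0.237 and 0.482. T-box genes went both ways. Tbx22, a palate gene, was at 9.75, 9.26 and 10.8 CPM in BA and at 0, 0 and 0.177 CPM in FLB, while Tbx4 was at 12.5, 12.1 and 12.0 CPM in FLB against 2.87, 3.92 and 3.61. Of the Irx genes, Irx1 (2.62), Irx2 (1.06) and Irx4 (0.92) were higher in BA and Irx3 and Irx5 lower.

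Sex-linked genes, of which 0 of 5 were called, varied with the replicate number alike in both tissues. Xist was at 579, 878 and 225 CPM in replicates 1, 2 and 3 of BA and at 509, 837 and 329 CPM in those of FLB. Ddx3y was at 23.9, 13.2 and 38.7 CPM in BA and at 31.3, 14.6 and 50.0 in FLB. Each library held both transcripts, and replicate 3 was lowest in Xist and highest in Ddx3y in both tissues.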
